A study of Homo sapiens with 24 samples.

Results

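Silencing of POM121 was compared between 2 prostate cancer sublines, 22Rv1DR and DU145DR, to find the genes whose response depended on the line. All 24 samples of the series were used, as 12 libraries after the 2 lanes of each were averaged. For each gene the line difference was the effect in 22Rv1DR (siPOM121 minus control, both constructs averaged) minus the effect in DU145DR, on the log2 FPKM scale, so a positive value means that siPOM121 raised the gene more, or lowered it less, in 22Rv1DR. Of 13622 symbols tested, 9790 stood above log2 FPKM 1 in the controls of both lines, and 2411 of those (24.6%) had a line difference that passed an adjusted p of 0.05 (limma, Benjamini-Hochberg over all symbols tested). The 449 genes described here are the 215 that moved in opposite directions, the 164 that moved in 22Rv1DR only and the 70 that moved in DU145DR only.

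POM121 is a membrane-anchored nucleoporin that takes part in building nuclear pore complexes, the channels through which transcription factors and other proteins enter the nucleus with the help of importins. Transcription factors of the E2F family drive the genes of DNA replication as cells leave G1, and FOXM1 with its partners drives those of mitosis. The immediate early genes, among them JUN, ATF3 and DUSP1, are switched on within minutes by growth factor, MAP kinase and stress signals. 22Rv1 and DU145 are established human prostate cancer lines of epithelial origin.

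Each group holds 2 libraries. The 22Rv1DR groups are siPOM121 construct 1, siPOM121 construct 2 and control, and the DU145DR groups are the same 3. The labels describe DU145DR and 22Rv1DR as aggressive derivatives of their parental lines, and they do not say what the control received or whether a subline is a single clone. Whether the 2 libraries of a group are separate cultures is not stated, and p-values therefore reflect library-to-library spread alone, which may be technical. Library values are listed with the construct 1 pair before the construct 2 pair.

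Of 5 epithelial markers KRT8, KRT18 and EPCAM were above the floor in every sample. CDH1, the E-cadherin gene, was at 5.1 to 5.88 FPKM in the 22Rv1DR siPOM121 samples and 4.78 to 5.51 FPKM in the 22Rv1DR controls and was listed at 0 in all DU145DR samples, and KRT19 was listed at 0 in all samples but 6 of the 22Rv1DR siPOM121 samples. KRT8 was at 357 to 529 FPKM in the 22Rv1DR siPOM121 samples and 379 to 386 FPKM in the 22Rv1DR controls. In DU145DR it was at 41.6 to 47.1 FPKM in the siPOM121 samples and 35.1 to 38.3 FPKM in the controls. Lanes 1 and 2 held every DU145DR library and the 22Rv1DR control 4A, while lanes 3 and 4 held the remaining 5 libraries of 22Rv1DR, so comparisons without 4A are those within one pair of lanes. The construct 2 libraries of 22Rv1DR, 4C and 5C, stood apart from each other: their median SD between libraries was 0.107 log2 units, against 0.0306 to 0.039 in the other 5 groups. Results are therefore also given without 4A and without 4C and 5C.

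The depth of silencing differed between the lines. POM121 was at 7.68, 7.81, 6.73 and 7.43 FPKM in the 22Rv1DR siPOM121 libraries, against 38.5 and 37.8 FPKM in the 22Rv1DR controls. DU145DR had 13.4, 13.5, 12.5 and 13.2 FPKM in the siPOM121 libraries, against 21.6 and 21.3 FPKM in the controls. POM121 fell by 2.37 ± 0.05 (limma's SE, 4 libraries against 2) on the log2 scale in 22Rv1DR and fell by 0.71 ± 0.05 in DU145DR. Its line difference was -1.66 ± 0.07 (limma, adjusted p = 2.84e-06). Each SE here and below comes from the fit of all 12 libraries, so it does not measure the spread of a single line. POM121C, a near-identical copy whose reads cannot be told apart from those of POM121 with certainty, had a line difference of -1.86 ± 0.08 (adjusted p = 3.74e-06). The subline and the depth of silencing change together, so their parts in any line difference below cannot be told apart.

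Over all 13622 symbols, 3377 (24.8%) had a called line difference, 1217 (8.93%) with the 22Rv1DR effect above the DU145DR effect and 2160 (15.9%) with it below. For the gene lists below, counts above or below zero cover called line differences only and are to be read against these shares. With 1 library left out, calls over all symbols ran from 1689 (without 2A) to 6180 (without 5C). List counts from such fits are to be read against that change. The median line difference over all symbols was -0.06. The share of calls with the 22Rv1DR effect above was 36%, and it was 49.2% after quantile normalization, so the balance of the 2 directions depended on the scaling. Of the calls, 91 had a size of at least 1 on the log2 scale, 44 above and 47 below. The effect of siPOM121 itself was called for 4842 symbols (35.5%) in 22Rv1DR, 2068 higher (15.2%) and 2774 lower (20.4%), and for 3253 symbols (23.9%) in DU145DR, 1977 higher (14.5%) and 1276 lower (9.37%). With the spread of all 12 libraries, the contrast of construct 1 gave 2510 called line differences (18.4%) and that of construct 2 gave 2873 (21.1%); both use the same control libraries. Fits with the libraries of 1 construct and the controls gave the other order, 4669 for construct 1 and 1233 for construct 2. The line difference itself differed between the constructs for 162 symbols (1.19%), and for 2450 at an unadjusted p under 0.05.

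Among the 2411 calls above log2 FPKM 1 in both controls, the pattern was set as follows. A gene moved in opposite directions when its effect passed the threshold in both lines with opposite signs (215, 2.2% of 9790). It moved in 1 line only when its effect there passed the threshold with a size of at least 0.5, while in the other line it was not called and its 95% interval lay within 0.3 of zero (164 or 1.68% for 22Rv1DR, 70 or 0.715% for DU145DR). A further 158 (1.61%) moved in the same direction by different amounts, 69 upward (0.705%) and 89 downward (0.909%). The remaining 1804 met none of these definitions; 1106 of them were called in 22Rv1DR alone but outside the bounds, 551 in DU145DR alone and 147 in neither line. At the edge of the control level, ASB9 and MPP7 were just inside with log2 FPKM 1.00 in the lower control, and RALGAPA2 and VARS2 just outside with 0.9983 and 0.9999. At the edge of the adjusted p, FAM195B was just inside at 0.04996 and RPS27 just outside at 0.05001. The scatter of the effects in both sublines shows the patterns.

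**Figure D1:**
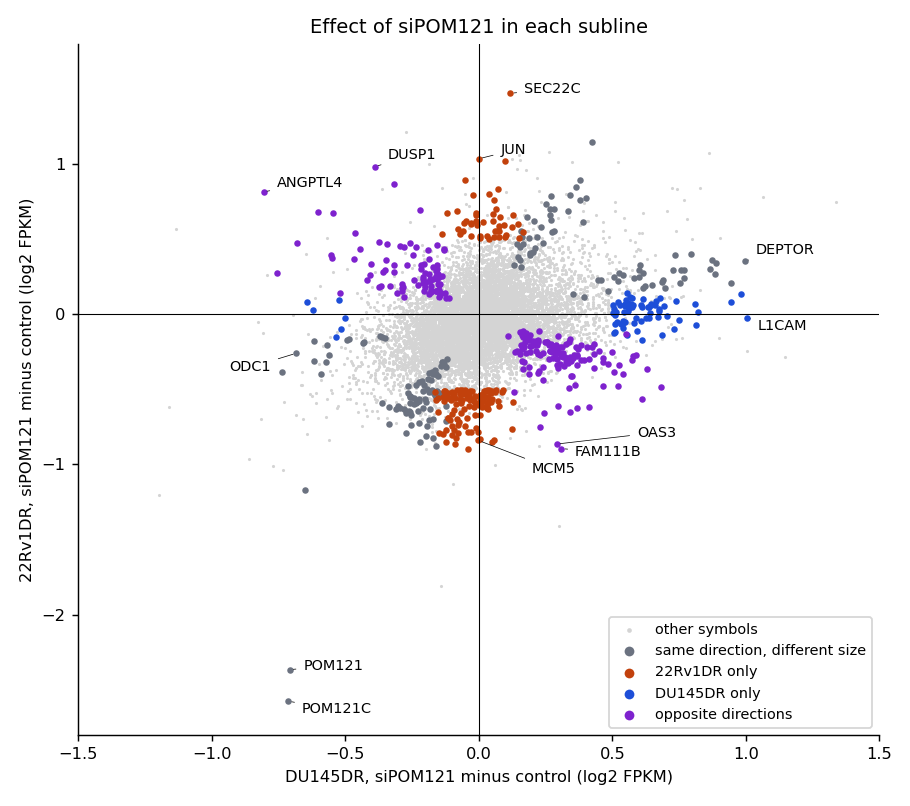
Effect of siPOM121 on each symbol in 22Rv1DR (vertical axis) against DU145DR (horizontal axis), both as siPOM121 minus control in log2 FPKM, for the 9698 symbols above log2 FPKM 1 in both controls that are not all-or-none; 2 of them lie outside the axes. Purple points moved in opposite directions, orange points in 22Rv1DR only, blue points in DU145DR only and darker grey points in the same direction by different amounts, and POM121 and POM121C lie lowest in 22Rv1DR.

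Genes that rose in 22Rv1DR and fell in DU145DR numbered 87 (0.889%), and their median effect was 0.26 in 22Rv1DR and -0.21 in DU145DR. The 4 silenced libraries did not overlap with the controls for 80 of the 87 in 22Rv1DR, where this held for 45.4% of all symbols tested. In DU145DR they did not overlap for 87 of 87, where it held for 49.3%. The 87 were chosen by effects in these same libraries, so the counts are a description only. Opposite and 1-line genes named for their size had to show this separation wherever an effect is claimed, so it is no separate result for them. The largest difference was that of ANGPTL4, a secreted inhibitor of lipoprotein lipase that fasting signals and hypoxia induce. ANGPTL4 was at 23.1, 22.9, 23.7 and 22.4 FPKM in the 22Rv1DR siPOM121 libraries, against 13.5 and 12.7 FPKM in the 22Rv1DR controls. In DU145DR the siPOM121 libraries gave 3.93, 3.48, 4.53 and 3.82 FPKM, against 7.49 and 6.28 FPKM in the controls. In both lines the silenced and control libraries did not overlap, and the effects were 0.82 ± 0.09 in 22Rv1DR and -0.81 ± 0.09 in DU145DR, a line difference of 1.62 ± 0.13 (adjusted p = 0.000174).

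DUSP1, a phosphatase that switches off MAP kinases, was at 12.1, 11.5, 17.4 and 12.8 FPKM in the 22Rv1DR siPOM121 libraries, against 6.8 and 6.63 FPKM in the 22Rv1DR controls. The DU145DR siPOM121 libraries had 64.4, 62, 66.6 and 67.1 FPKM of DUSP1, against 85.6 and 84.7 FPKM in the DU145DR controls. DUSP1 thus ran higher in all 4 silenced libraries of one line and lower in all 4 of the other, with 4C the highest of the 22Rv1DR set, and its line difference was 1.37 ± 0.14 (adjusted p = 0.000409). GADD45B, a stress sensor of the GADD45 family, was at 14.2, 15.7, 23.5 and 18.9 FPKM in the 22Rv1DR siPOM121 libraries, against 10.7 and 11.4 FPKM in the controls. It was at 29.9, 32.8, 34.7 and 31.2 FPKM in the DU145DR siPOM121 libraries, against 49.4 and 48.1 FPKM in the controls. The groups of GADD45B did not overlap in either line, and the difference was 1.28 ± 0.13 (adjusted p = 0.000391), 1.07 with construct 1 and 1.49 with construct 2.

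PPP1R15A, which brings protein phosphatase 1 to the translation factor eIF2-alpha and so restores translation after stress, had effects of 0.47 in 22Rv1DR and -0.68 in DU145DR, a difference of 1.16 ± 0.12 (adjusted p = 0.000468). BHLHE40, a repressor of the circadian clock that hypoxia induces, differed by 1.22 ± 0.18 (adjusted p = 0.00228). ADM, the vasodilator peptide adrenomedullin, had effects of 0.87 in 22Rv1DR and -0.32 in DU145DR, a difference of 1.18 ± 0.14 (adjusted p = 0.000747). The growth and differentiation regulator IFRD1 differed by 1.00 ± 0.10 and the receptor of the cytokine TWEAK, TNFRSF12A, by 0.92 ± 0.08. DHRS3, an enzyme that reduces retinal, differed by 1.03 ± 0.10, from effects of 0.28 in 22Rv1DR and -0.76 in DU145DR, and did not pass on the lower-numbered lanes alone (0.87). The antisense symbol EPB41L4A-AS1 differed by 0.95 ± 0.09, and without strand its reads cannot be separated from those of an overlapping gene.

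Genes that fell in 22Rv1DR and rose in DU145DR numbered 128 (1.31%), with median effects of -0.27 in 22Rv1DR and 0.29 in DU145DR. Silenced and control libraries did not overlap for 118 of the 128 in 22Rv1DR and for all 128 in DU145DR. Over all symbols tested this held for 45.4% in 22Rv1DR and 49.3% in DU145DR. The 128 were likewise chosen by effects in these libraries, so the counts are a description only. FAM111B, a protease whose transcript peaks in S phase, led by size. It was at 5.81, 6.22, 8.31 and 7.33 FPKM in the 22Rv1DR siPOM121 libraries, against 13.4 and 12.1 FPKM in the 22Rv1DR controls. The DU145DR values were 7.26, 7.06, 6.64 and 6.81 FPKM in the siPOM121 libraries, against 5.66 and 5.54 FPKM in the controls. The FAM111B libraries of each line separated fully by treatment, in opposite orders, with a line difference of -1.20 ± 0.09 (adjusted p = 0.000146).

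OAS3, an interferon-induced enzyme that makes oligoadenylates on sensing double-stranded RNA, was at 4.48, 4.41, 6.41 and 6.05 FPKM in the 22Rv1DR siPOM121 libraries, against 9.7 and 9.45 FPKM in the controls. The DU145DR siPOM121 libraries had 5.14, 5.49, 4.91 and 5.28 FPKM of OAS3, against 4.36 and 4.14 FPKM in the controls. Its line difference was -1.16 ± 0.08 (adjusted p = 8.71e-05), and it was -1.43 with construct 1 and -0.88 with construct 2, a difference between constructs that itself passed the threshold (adjusted p = 0.0294). ASF1B, a histone chaperone used behind the replication fork, had 25.2, 27.2, 33.4 and 32.8 FPKM in the 22Rv1DR siPOM121 libraries, against 47.8 and 51.2 FPKM in the controls. In DU145DR it had 92.7, 92.7, 95.1 and 96.1 FPKM in the siPOM121 libraries, against 82.4 and 78.5 FPKM in the controls. The effects on ASF1B were -0.75 ± 0.04 in 22Rv1DR and 0.23 ± 0.04 in DU145DR (adjusted p of the difference = 6.85e-05).

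SREBF1, the transcription factor of fatty acid and cholesterol synthesis genes, was at 4.87, 5.61, 6.05 and 6.45 FPKM in the 22Rv1DR siPOM121 libraries, against 9.15 and 8.47 FPKM in the controls. In DU145DR its siPOM121 libraries had 6.36, 6.43, 5.83 and 6.05 FPKM, against 5.09 and 4.48 FPKM in the controls. Neither line had an overlap between silenced and control libraries, and the difference was -0.99 ± 0.11 (adjusted p = 0.000538). The glutamate transporter SLC1A3 differed by -0.998 ± 0.15, the Groucho co-repressor TLE2 by -0.995 ± 0.11 and the focal adhesion protein TNS3 by -0.99 ± 0.14. LRRC45, which helps to link centrosomes, differed by -1.03 ± 0.10, and CNFN, a cornified envelope protein, by -1.17 ± 0.17. The non-coding symbol LINC00263 differed by -1.17 ± 0.14.

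**Figure D2:**
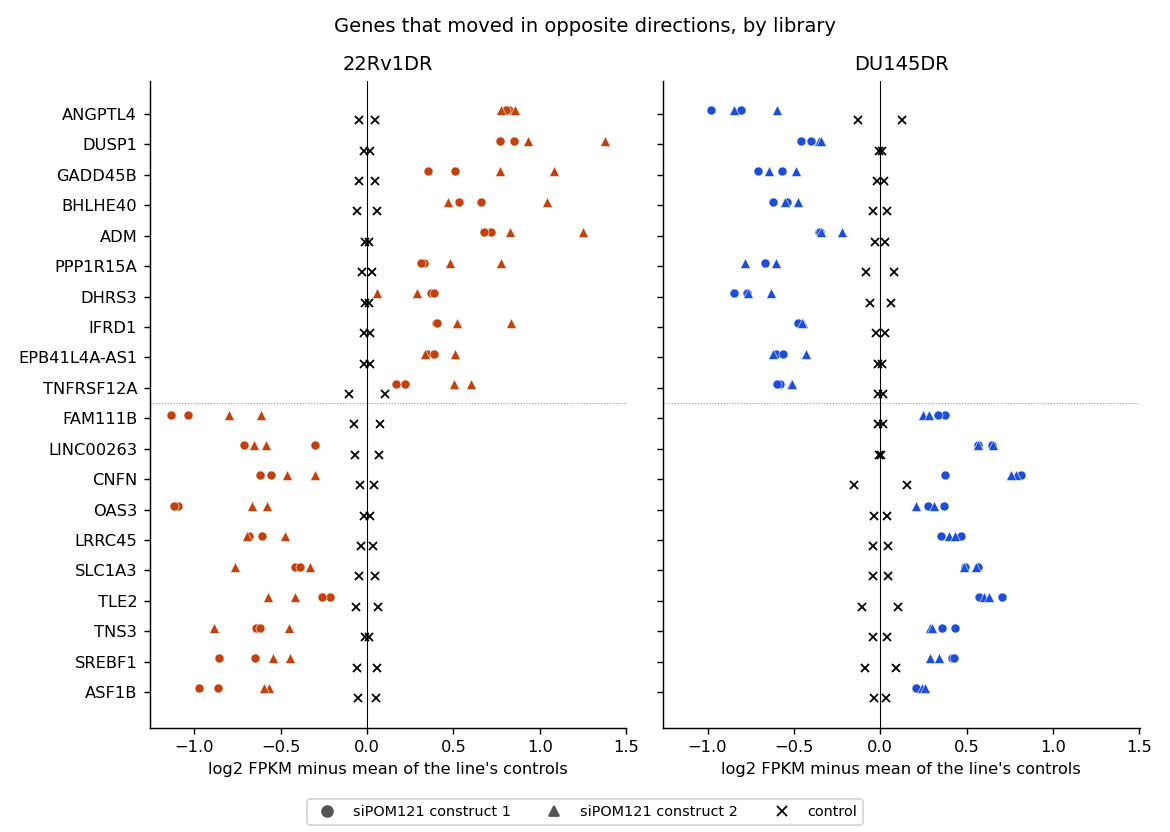
Log2 FPKM of each library minus the mean of its line's control libraries for the 10 genes above and the 10 below the dotted line with the largest line differences among opposite responders, in 22Rv1DR (left) and DU145DR (right). Circles are construct 1, triangles construct 2 and crosses controls. By the choice of genes, every silenced library of ANGPTL4 to TNFRSF12A lies right of zero in 22Rv1DR and left of it in DU145DR. Those of FAM111B to ASF1B lie the other way round.

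Genes of DNA replication differed between the lines almost throughout. Of the 164 genes that moved in that line only, 117 fell (1.2% of the 9790) and 47 rose (0.48%). All 45 entries of a list of E2F and DNA replication genes were tested: 41 had a line difference below zero, 1 (CCNE1) above it, and 3 (RFC3, RRM2 and CCNE2) did not pass. Their median line difference was -0.59, against -0.06 over all symbols. The list's median effect was -0.62 in 22Rv1DR, where 43 of 45 fell and 1 rose, and -0.08 in DU145DR, where 10 fell and none rose; 23 of the 45 met the definition of a 22Rv1DR-only gene (one of them, RFC4, all-or-none), which is 19.7% of the 117. In bulk RNA, fewer cells in S phase and less transcript per cell cannot be told apart. Leaving out any 1 library left 36 to 43 below zero. Without 4C and 5C there were 43 with a median of -0.73, and with construct 2 libraries and controls only there were 22 with a median of -0.40.

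Of the 6 subunits of the replicative helicase, MCM2, MCM4, MCM5 and MCM6 fell in 22Rv1DR only, while MCM3 and MCM7 fell in both lines, more so in 22Rv1DR. MCM5 was at 26.7, 26.1, 33.4 and 34.5 FPKM in the 22Rv1DR siPOM121 libraries, against 52.2 and 55 FPKM in the 22Rv1DR controls. DU145DR had MCM5 at 120, 116, 119 and 119 FPKM in the siPOM121 libraries, against 123 and 115 FPKM in the controls. MCM5 thus separated in one line and overlapped with its controls in the other, with effects of -0.84 ± 0.04 in 22Rv1DR and -0.00 ± 0.04 in DU145DR, and a line difference of -0.84 ± 0.06 (adjusted p = 0.000105). MCM2 differed by -0.83 ± 0.06 and MCM4 by -0.78 ± 0.05. GINS4, a subunit of the complex that activates the helicase, was at 5.17, 5.54, 5.92 and 6.92 FPKM in the 22Rv1DR siPOM121 libraries, against 11.1 and 10.7 FPKM in the 22Rv1DR controls. It was at 12.3 to 13 FPKM in all DU145DR siPOM121 libraries, against 13.2 and 12.9 FPKM in the DU145DR controls.

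Genes of the lagging strand and of chromatin assembly moved the same way. FEN1, the flap nuclease that trims Okazaki fragments, differed by -0.78 ± 0.09, and LIG1, the ligase that joins them, by -0.89 ± 0.06 (adjusted p = 0.000106). PCNA, the sliding clamp, had effects of -0.58 in 22Rv1DR and 0.13 in DU145DR, a difference of -0.71. CHAF1A, of the complex that places histones behind the fork, differed by -0.71 ± 0.05. Among checkpoint and repair genes, CLSPN differed by -0.73 ± 0.08 and MDC1 by -0.70 ± 0.09, and the kinetochore gene ZWINT by -0.74 ± 0.06. For MCM4 and CHAF1A the difference was larger with construct 1 than with construct 2, at -1.0003 and -0.56 for MCM4 and at -0.88 and -0.55 for CHAF1A (adjusted p of the difference between constructs 0.0197 for MCM4 and 0.0426 for CHAF1A).

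E2F1 itself was at 11.9, 11.5, 17.8 and 15.9 FPKM in the 22Rv1DR siPOM121 libraries, against 20.7 and 22.3 FPKM in the 22Rv1DR controls. DU145DR had E2F1 at 26.2, 25.2, 26.5 and 27 FPKM in the siPOM121 libraries, against 26.9 and 25.2 FPKM in the controls. Its libraries separated in 22Rv1DR and overlapped in DU145DR, and the line difference was -0.63 ± 0.08 (adjusted p = 0.00112). Taken alone the constructs gave -0.86 and -0.40, and the second no longer passed in a fit of construct 2 libraries and controls only.

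**Figure D3:**
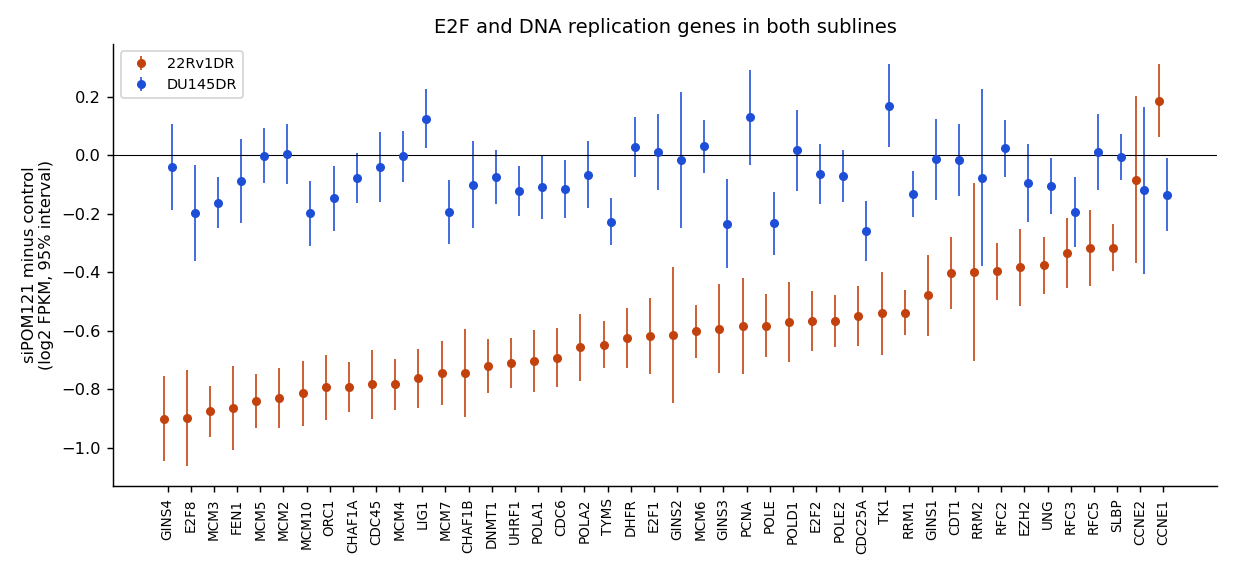
Effect of siPOM121 in 22Rv1DR (orange) and DU145DR (blue) on the E2F and DNA replication genes that are not all-or-none, in log2 FPKM with 95% intervals from limma, ordered by the 22Rv1DR effect. The 22Rv1DR effects run down to -0.90 for GINS4, while the DU145DR effects lie between -0.26 (CDC25A) and 0.17 (TK1); CCNE1 is the gene with a called difference above zero.

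The promoters of 4 of these genes are shown because they hold the letters an E2F dimer binds. The motif searched was TTTCCCGC, TTTGGCGC, TTTCGCGC or TTTGCCGC on either strand, in windows of 250 bases before to 50 after the gene start in RefSeq (GRCh38.p14). Such a motif is in 3.33% of all 27305 promoters of that table and in 6.01% of the 7940 promoters found for the 9790 symbols above the control level. For the 117 genes that fell in 22Rv1DR only, windows were found for 90, fewer than 80%, so a comparison of their share is void. The stretches below are on the strand of the gene and run 5′ to 3′, with the motif in capitals; they lie at chr20:33686386-33686458 (E2F1), chr2:135876548-135876635 (MCM6), chr20:5126634-5126721 (PCNA) and chr16:85688955-85689025 (GINS2), all on the minus strand. A match describes the letters and does not show binding.
E2F1: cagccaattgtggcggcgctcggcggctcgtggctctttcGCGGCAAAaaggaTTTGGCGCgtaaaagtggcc
MCM6: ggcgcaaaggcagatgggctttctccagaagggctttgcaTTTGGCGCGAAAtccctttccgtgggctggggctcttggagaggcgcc
PCNA: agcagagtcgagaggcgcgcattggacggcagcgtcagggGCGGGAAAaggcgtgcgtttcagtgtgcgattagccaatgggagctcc
GINS2: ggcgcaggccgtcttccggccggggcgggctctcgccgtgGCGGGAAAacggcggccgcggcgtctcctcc
In MCM6 the capitals hold motifs on both strands that overlap. The genes beside these letters differed by -0.63 (E2F1), -0.63 (MCM6), -0.71 (PCNA) and -0.60 (GINS2) between the lines.

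Mitotic genes followed with smaller sizes. Of 38 tested, 28 had a line difference below zero, none above, and 10 did not pass; the median was -0.36. In 22Rv1DR 33 of the 38 fell, with a median effect of -0.44, and in DU145DR 7 fell and 1 rose, with a median of -0.07. FOXM1, the transcription factor of mitotic genes, differed by -0.62 ± 0.07 (adjusted p = 0.000566), and the kinetochore protein CENPF by -0.65 ± 0.06. TOP2A, the topoisomerase that untangles sister chromatids, differed by -0.53 ± 0.06, with -0.72 for construct 1 and -0.34 for construct 2 (adjusted p between constructs = 0.0332). Leaving out any 1 library left 19 to 32 of the 38 called below zero. Without 4C and 5C all 38 were, and with construct 2 libraries and controls only 8 were, with a median of -0.19. In a list of 20 tubulin, microtubule and drug transport genes, 9 differences were called below zero, none above, and 11 did not pass. Over all symbols 15.9% were called below and 8.93% above. TUBA1B differed by -0.50 ± 0.10, which did not pass with construct 2 libraries and controls only, and TUBB by -0.43 ± 0.07. Leaving out 1A gave a count of 5, 2A or 5A a count of 3, 4A a count of 4 and 5C a count of 15, and quantile normalization gave 4. Over all 13622 symbols the calls below zero were 2160, and in the same fits 1407 (1A), 1095 (2A), 1201 (5A), 1303 (4A), 4218 (5C) and 1834 (quantile).

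Of the immediate early and AP-1 genes, 12 of 22 tested had a line difference above zero, none below, and 10 did not pass, with a median of 0.45. Of the 18 that were above log2 FPKM 1 in the controls of both lines 10 were above zero, with a median of 0.46; the other calls were those of KLF2 and FOSL1, which are below that level in the 22Rv1DR controls. In 22Rv1DR 17 rose and none fell, and in DU145DR 7 rose and 4 fell. JUN, the AP-1 subunit, was at 57.6, 57.1, 79.7 and 60.5 FPKM in the 22Rv1DR siPOM121 libraries, against 30.9 and 30.6 FPKM in the 22Rv1DR controls. Its DU145DR values were 16.6, 16.5, 16.8 and 16.2 FPKM with siPOM121, against 17.1 and 16 FPKM in the controls. JUN was higher in every silenced library of 22Rv1DR, most of all in 4C, and its DU145DR libraries overlapped. The line difference was 1.04 ± 0.13 (adjusted p = 0.000928). ATF3, a stress-induced partner of JUN, differed by 1.48 ± 0.22 (adjusted p = 0.00202) from effects of 1.21 in 22Rv1DR, and -0.27 in DU145DR, which did not pass. KLF10, induced by TGF-beta, differed by 0.66 ± 0.06 and the small MAF factor MAFF by 0.88. The line difference was not called for EGR1, FOS or BTG2, which rose in both lines and differed by 0.01, 0.21 and 0.09. Without 2A or without 4A 8 of the 22 were called above zero, and without 4C and 5C 11 were, with a median of 0.22. With construct 1 libraries and controls only the median was 0.18, with 9 above and 2 below, and with construct 2 libraries and controls only it was 0.60, with 12 above and none below.

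The promoters of DUSP1 and MAFF hold the cyclic AMP response element TGACGTCA, which CREB and ATF factors bind and which AP-1 dimers of JUN and ATF can bind. That element, the same on both strands, is in 1.98% of all promoters of the table and in 3.75% of those found for symbols above the control level. For the 87 genes that rose in 22Rv1DR and fell in DU145DR windows were found for 67, fewer than 80%, so their share is void. For the 47 that rose in 22Rv1DR only, 41 windows were found and 3 held the element (7.32%), a count given as a description. JUN, ATF3, GADD45B and FAM111B were looked up as well and either had no window or no such element before the gene start. The stretches lie at chr5:172771273-172771360 on the minus strand (DUSP1) and chr22:38201900-38201987 on the plus strand (MAFF), with the element in capitals.
DUSP1: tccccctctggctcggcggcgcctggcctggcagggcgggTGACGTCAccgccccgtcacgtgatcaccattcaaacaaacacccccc
MAFF: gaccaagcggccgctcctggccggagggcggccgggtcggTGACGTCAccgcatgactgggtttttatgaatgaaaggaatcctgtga

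A list of MAP kinase feedback regulators, PEA3 factors, ligands and receptors was tested as well. Of its 19 genes tested, 10 were above zero, 1 below and 8 did not pass, with a median of 0.25. Of the 13 above log2 FPKM 1 in both controls 5 were above zero (DUSP6, SPRY4, SPRED1, EPHA2 and EGFR), 1 below and 7 not called, with a median of 0.16. The other 5 calls (DUSP5, ETV1, PHLDA1, AREG and HBEGF) were below that level in the controls of 1 line, and ETV1 and AREG were listed at 0 in the DU145DR controls. DUSP6, the ERK phosphatase, was at 7.75, 8.13, 7.45 and 8.52 FPKM in the 22Rv1DR siPOM121 libraries, against 6.42 and 6.68 FPKM in the controls. The DU145DR values were 2.34, 2.69, 2.16 and 2.52 FPKM in the siPOM121 libraries, against 3.27 and 2.94 FPKM in the controls. DUSP6 therefore moved in opposite directions, without overlap in either line, and differed by 0.64 ± 0.13 (adjusted p = 0.00783). The ERK pathway inhibitor SPRY4 differed by 0.60 ± 0.07 and the related SPRED1 by 0.50 ± 0.09, and SPRED1 did not pass with construct 2 libraries and controls only. The one called below zero was the receptor ERBB3, which rose in DU145DR only, by 0.53 ± 0.06, and whose line difference was -0.47 ± 0.09. That difference did not pass on the lower-numbered lanes alone (-0.33) or with construct 2 libraries and controls only (-0.50). With all 19, 5 were called above zero without 1A or 4A, 6 without 2A, 1B, 1C, 2C, 5A or 5B, and 11 without 4C or 5C.

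Other genes that rose in 22Rv1DR only included SEC22C, a vesicle traffic protein of the endoplasmic reticulum. SEC22C was at 14.9, 16.6, 18.5 and 18.6 FPKM in the 22Rv1DR siPOM121 libraries, against 6.34 and 5.98 FPKM in the 22Rv1DR controls. DU145DR had SEC22C at 29, 28.8, 28.1 and 28 FPKM in the siPOM121 libraries, against 26.6 and 25.8 FPKM in the controls. The libraries separated in both lines, with an effect of 1.47 ± 0.05 in 22Rv1DR and one of 0.12 ± 0.05 in DU145DR that did not pass (adjusted p = 0.12), and the line difference was 1.35 ± 0.07 (adjusted p = 1.11e-05). GADD45A, a p53-regulated stress gene, was at 34.5, 34.3, 38.4 and 35.6 FPKM in the 22Rv1DR siPOM121 libraries, against 20.1 and 19.9 FPKM in the controls, and differed by 0.76 ± 0.06 (adjusted p = 0.00015). DUSP10, a phosphatase of JNK and p38, differed by 0.92 ± 0.12, the deubiquitinase YOD1 by 0.94 ± 0.10 and the EGFR inhibitor ERRFI1 by 0.82 ± 0.16. SAT1, the rate-limiting enzyme of polyamine breakdown, differed by 0.76 ± 0.15, but by 0.42 without 4C and 5C.

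Of the 117 genes that fell in 22Rv1DR only, 84 had a called line difference with each construct. For 26 of the 117 the line difference itself differed between the constructs, against 162 of all 13622 symbols (1.19%). The 117 were chosen by effects in these libraries, so the counts are a description only. One of the 8 named falls of 22Rv1DR only rested largely on construct 1. ESYT1, a tether between endoplasmic reticulum and plasma membrane, was at 24, 25, 59.8 and 45.1 FPKM in the 22Rv1DR siPOM121 libraries, against 63.5 and 65.1 FPKM in the controls. The line difference was -1.44 with construct 1 and -0.36 with construct 2, and these differed (adjusted p = 0.0197). With construct 2 libraries and controls only, the difference did not pass.

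Of 27 hypoxia and glycolysis genes, 11 were called above zero, 1 (PFKL) below and 15 did not pass, with a median of 0.22. For this and the lists that follow, the shares over all symbols were 8.93% above and 15.9% below. Leaving out 1A gave 5 above zero, leaving out 5A gave 6 and leaving out 5C gave 17, while construct 2 libraries and controls only gave 5. Over all symbols the calls above zero were 1217, and in the same fits 704, 638, 1962 and 493 in that order. VEGFA, the angiogenic growth factor, was at 54.9, 57, 62.3 and 54.7 FPKM in the 22Rv1DR siPOM121 libraries, against 40.3 and 41.5 FPKM in the controls. DU145DR had VEGFA at 18.6, 19.6, 19.1 and 19.3 FPKM in the siPOM121 libraries, against 25.4 and 24.3 FPKM in the controls. VEGFA moved in opposite directions with no overlap, and differed by 0.86 ± 0.08 (adjusted p = 0.000319), as did the histone demethylase gene KDM3A, by 0.62 ± 0.07. Of 24 p53 targets 6 were above zero, 2 below and 16 not called. The death receptor TNFRSF10B differed by 0.62 ± 0.06. After quantile normalization 11 of the p53 targets were above zero, while such calls over all symbols went from 1217 to 1777. Of 24 apoptosis regulators 4 were called above zero, 2 below, and 18 did not pass. Among these PMAIP1, the BH3-only protein NOXA, had effects of 0.70 in 22Rv1DR and -0.22 in DU145DR, and differed by 0.92 ± 0.08 (adjusted p = 0.000211), and the survival protein MCL1 differed by 0.48 ± 0.05. HMOX1, which breaks down heme, rose by 0.33 ± 0.05 in 22Rv1DR and fell by 0.40 ± 0.05 in DU145DR. Of the 22 NRF2 antioxidant genes it is listed with, 2 were called above zero and 6 below.

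Of 20 genes of the unfolded protein response, 10 were called below zero, 1 above and 9 did not pass, with a median of -0.34. Over all symbols 15.9% were called below and 8.93% above. The one above, DNAJB9, had a library listed at 0 beside others at log2 3 or more and is not described further. In 22Rv1DR 3 of the 20 rose and 4 fell, and in DU145DR 10 rose and none fell. SDF2L1, a chaperone cofactor, was at 71.5, 75.6, 90.4 and 91.7 FPKM in the 22Rv1DR siPOM121 libraries, against 101 and 99.7 FPKM in the 22Rv1DR controls. It was at 67.6, 63.9, 69.8 and 65.2 FPKM in the DU145DR siPOM121 libraries, against 48.7 and 47.8 FPKM in the controls. SDF2L1 separated in both lines in opposite orders, with a line difference of -0.76 ± 0.06 (adjusted p = 0.000186). The protein disulfide isomerase PDIA4 also moved in opposite directions, by -0.20 ± 0.05 in 22Rv1DR and 0.43 ± 0.05 in DU145DR. The secreted factor MANF met the definition of a DU145DR-only gene, with a rise of 0.61 ± 0.06 in DU145DR. Its 22Rv1DR effect of -0.17 fell just short of the threshold (limma, adjusted p = 0.0501). Leaving out any 1 library left 8 to 14 called below zero; without 4C and 5C 14 were, and with construct 2 libraries and controls only 6 were.

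Of 25 cholesterol synthesis and uptake genes, 10 were called below zero, 1 (FDFT1) above and 14 did not pass, with a median of -0.19. Over all symbols 15.9% were called below and 8.93% above. Opposite movement was called for SREBF1 and, among the enzymes, for LSS, which closes the sterol rings and differed by -0.63 ± 0.07, and for mevalonate kinase MVK, which differed by -0.39 ± 0.07 but did not pass on the lower-numbered lanes alone or with construct 2 libraries and controls only. The sterol feedback targets SQLE and INSIG1 had no called difference, with values of 0.01 and 0.15. Of 14 fatty acid synthesis genes 5 were called below zero, none above, and 9 did not pass. The desaturase SCD differed by -0.56 ± 0.08 (adjusted p = 0.00213), which was lost with construct 2 libraries and controls only. The 10 cholesterol genes below zero became 4 without 2A or without 5A, 16 without 4C and 5C, and 4 with construct 2 libraries and controls only. The 5 fatty acid genes became 1 without 2A, 3 without 5A and 8 without 5C.

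Genes that moved in DU145DR only rose in 64 cases (0.654%) and fell in 6 (0.0613%). L1CAM, an adhesion molecule of neurons and of some invasive tumours, was at 5.36, 5.16, 4.14 and 4.9 FPKM in the 22Rv1DR siPOM121 libraries, against 4.83 and 5.09 FPKM in the 22Rv1DR controls. In DU145DR L1CAM was at 4.83, 4.3, 3.77 and 4.06 FPKM in the siPOM121 libraries, against 2.16 and 2.05 FPKM in the controls. The rise brought DU145DR near the level of 22Rv1DR, whose libraries overlapped, and the line difference was -1.03 ± 0.11 (adjusted p = 0.000622), -1.03 with either construct. DBP, an output factor of the circadian clock, was at 16.5, 15.3, 17.2 and 19.6 FPKM in the 22Rv1DR siPOM121 libraries, against 15.9 and 16.4 FPKM in the controls. In DU145DR DBP was at 6.39, 6.07, 4.84 and 5.33 FPKM in the siPOM121 libraries, against 2.88 and 2.96 FPKM in the controls. Silenced and control libraries overlapped in 22Rv1DR and separated in DU145DR, and DBP differed by -0.87 ± 0.10 (adjusted p = 0.0006).

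The transcription factor CEBPD rose by 0.82 ± 0.12 in DU145DR, where its siPOM121 libraries had 52.8 to 62.3 FPKM, against 31.9 and 31.6 FPKM in the controls. Its line difference of -0.80 ± 0.17 (adjusted p = 0.0108) did not pass without 22Rv1DR control 5A (-0.78) or with construct 2 libraries and controls only (-0.53). SORT1, the sorting receptor sortilin, differed by -0.79 ± 0.07, the netrin receptor UNC5A by -0.74 ± 0.10, and the laminin-binding BCAM by -0.65 ± 0.12. PLEKHB1 differed by -0.85 ± 0.10 and the coronin CORO2A by -0.88 ± 0.11. Among list members, the tight junction claudin CLDN3 had effects of 0.10 in 22Rv1DR, which did not pass, and 0.62 ± 0.07 in DU145DR (its line difference did not pass on the lower-numbered lanes alone), and the p53 target CYFIP2 of 0.01 in 22Rv1DR, which did not pass, and 0.64 ± 0.08 in DU145DR. Without 4A the number of DU145DR-only genes was 32 in place of 70, and 29 of the 70 were among them.

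The 6 falls of DU145DR only were those of CRY1, SNHG12, ZNF542P, VGF, UBA6-AS1 and SBDSP1. Of these 4 are annotated as non-coding, among 3.12% of the 9644 symbols above the control level with an annotated type. CRY1, a clock repressor, was at 9.76, 9.71, 11.1 and 11.4 FPKM in the 22Rv1DR siPOM121 libraries, against 10.3 and 9.57 FPKM in the controls. In DU145DR CRY1 was at 1.83, 1.77, 2.07 and 1.59 FPKM in the siPOM121 libraries, against 2.86 and 2.78 FPKM in the controls. Its libraries overlapped in 22Rv1DR and separated in DU145DR; the line difference was 0.72 ± 0.13 (adjusted p = 0.00494), and it did not pass on the higher-numbered lanes alone. VGF, a secreted neuroendocrine peptide precursor, was at 592, 578, 695 and 659 FPKM in the 22Rv1DR siPOM121 libraries, against 585 and 593 FPKM in the controls. In DU145DR VGF was at 8.92, 7.38, 8.03 and 8.39 FPKM in the siPOM121 libraries, against 12 and 11.5 FPKM in the controls. The 22Rv1DR libraries overlapped and the DU145DR libraries did not, and the difference was 0.62 ± 0.10 (adjusted p = 0.00256). SNHG12, a host of small nucleolar RNAs, differed by 0.65 ± 0.14, and did not pass without DU145DR control 2A. SBDSP1 is a pseudogene that shares sequence with SBDS, and UBA6-AS1 is an antisense symbol, so their reads may belong in part to other genes. ZNF542P, with a difference of 0.39 ± 0.09, lost its call in 5 of the alternatives.

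**Figure D4:**
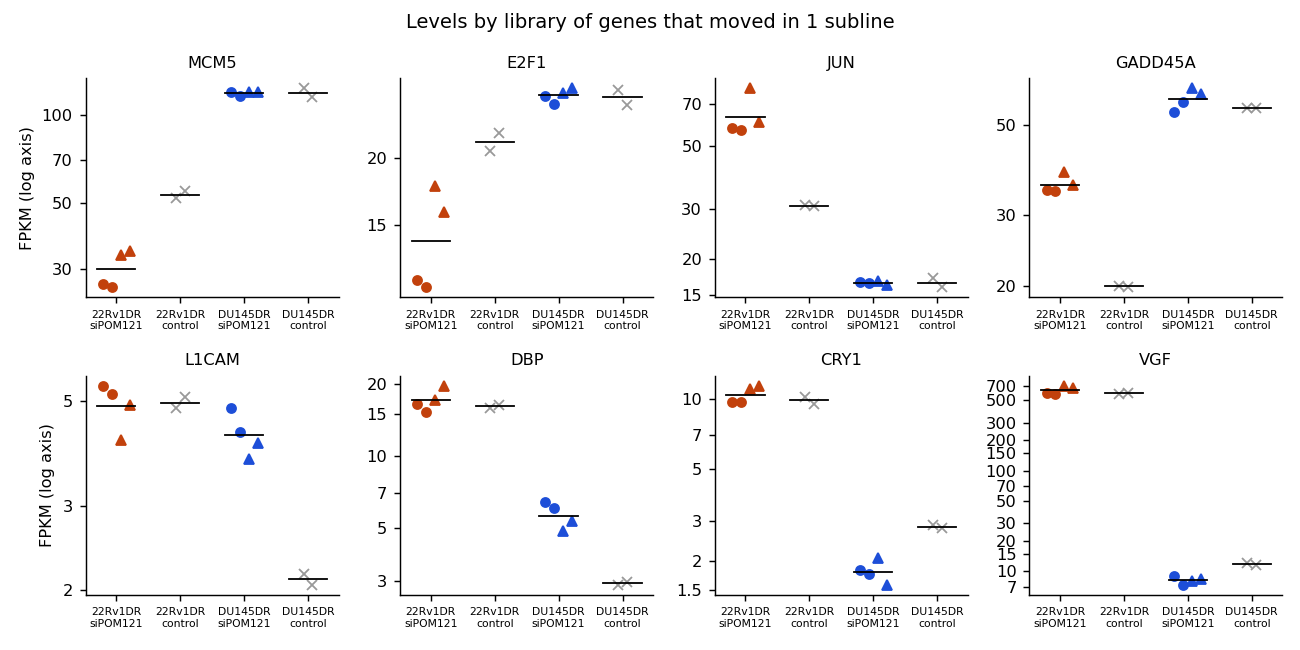
FPKM in each library on log axes for 4 genes that moved in 22Rv1DR only (MCM5, E2F1, JUN, GADD45A) and 4 that moved in DU145DR only (L1CAM, DBP, CRY1, VGF). Circles are construct 1, triangles construct 2, crosses controls and bars group means on the log scale; in each panel the silenced libraries leave their controls in 1 line and stay at or near them in the other.

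The control levels of the groups differed between the lines. Of the 64 genes that rose in DU145DR only, 52 (81.3%) were higher in the 22Rv1DR controls than in the DU145DR controls, with median levels of 10.7 FPKM in the 22Rv1DR controls and 5.37 FPKM in the DU145DR controls. For the genes that rose in 22Rv1DR and fell in DU145DR this held for 22 of 87 (25.3%), with medians of 15 and 25.8 FPKM in the same order. Over all 9790 symbols it held for 45.4%. The effects and these levels use the same control libraries, so the shares are a description only.

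Of 40 MYC target and ribosome biogenesis genes 35 did not pass, 4 were above zero and 1 below, while 29 fell in 22Rv1DR and 33 fell in DU145DR. MYC differed by -0.11 ± 0.15 (adjusted p = 0.646) and GATA2 by 0.19 ± 0.15 (adjusted p = 0.394); without 5C MYC passed at -0.23 (adjusted p = 0.0188), and without 4C GATA2 passed at 0.30 (adjusted p = 0.00793). Without 4C the MYC target list had 12 above and 4 below, and without 5C 9 above and 11 below. Of 48 ribosomal proteins 46 did not pass and 2 were above zero, but without 4C 3 were above and 22 below, and without 5C 18 were above and none below. Of 30 nucleoporins 8 were below zero and none above, with 1 below without 2A or 5A and 14 without 5C. Of 31 importins, exportins and Ran cycle genes 4 were above and 2 below, and without 5C 8 were above and 15 below. Among 32 interferon response genes 2 were above and 7 below, and of 19 NF-kB and inflammatory genes 2 were above and 6 below. The list of YAP and mesenchymal genes gave 8 above and 2 below of 24, and that of ATF4 and amino acid genes 7 and 2 of 25, or 4 above without 2A, 4A or 5A and 12 without 5C. Of the 9 YAP and mesenchymal genes above log2 FPKM 1 in both controls 2 were above and 1 below, of 12 such interferon genes 0 and 4, and of 7 such NF-kB genes 0 and 1, so most of the calls in these 3 lists lie in genes below that level in at least 1 line. The interferon calls below zero ranged over 1 (without 5A) to 13 (without 5C), and those of NF-kB over 3 (without 4A or 5A) to 10 (without 5C). Over all 13622 symbols the calls below zero ranged over 1095 (without 2A) to 4218 (without 5C). Those above ranged over 594 (without 2A) to 2074 (without 4C), and the list counts of this paragraph are to be read against these ranges. Among heat shock proteins 3 were above and 1 below of 20, among FOXO and TXNIP growth restraint genes 4 and 1 of 22, and among histones 4 and 2 of 19. Epithelial junctions and keratins gave 3 above and 5 below of 27, Notch and Hedgehog genes 1 and 4 of 17, and respiratory chain subunits 0 and 3 of 33. Integrins and annexins gave 1 above and 2 below of 17, and neuroendocrine genes 1 and 2 of 9. The share of each list called in each direction is drawn beside that of all symbols.

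**Figure D5:**
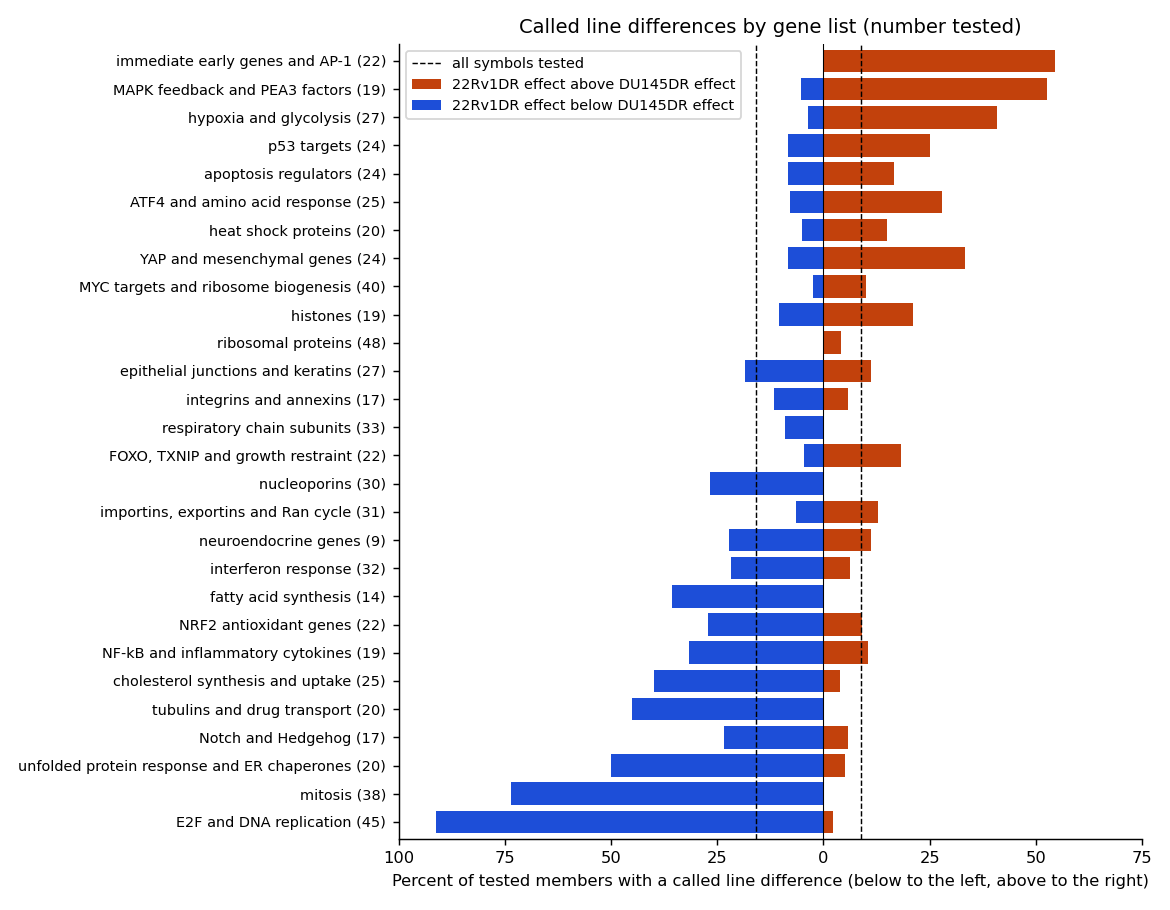
Percent of the tested members of each of 28 gene lists whose line difference was called, with the 22Rv1DR effect above the DU145DR effect (orange, right) or below it (blue, left), ordered by median difference. Dashed lines mark the 8.93% above and 15.9% below among all symbols tested; the E2F and DNA replication list has 41 of 45 below, and the immediate early list 12 of 22 above.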

How the data were processed

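Poly(A) RNA libraries made with TruSeq RNA v2 reagents, which do not keep strand, went through TopHat for alignment and Cufflinks for quantification, per the submitters' processing notes, where the human build is hg19; versions are not given in the sources used here. The deposited values are log2 FPKM, and the authors set values at or under 1 FPKM to 0, as the file's values show (smallest value above the floor 1 FPKM; 52.8% at the floor). A fold change of a gene near the floor is therefore understated. Depth per sample is unknown; 11884 to 12569 symbols per sample were above the floor. Of 25277 symbols 605 occurred on more than 1 line, of which the one with the largest mean was used.

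The 2 lanes of a library were averaged, and tests covered symbols with both lanes above the floor in 2 or more of the 12 libraries. One fit with limma 3.58.1 in R 4.3.3 (6 group means, trend and robust options, 6 residual degrees of freedom, 2-sided, Benjamini-Hochberg) gave every contrast; SE is limma's. Simulated line differences of 0.5 and 1 log2 units were recovered in 56% and 90% of 100 genes each, with 8 false calls. The simulation drew normal noise with the same spread in all groups and changed only genes above a set mean level. It therefore does not cover the wider spread of 4C and 5C or genes near the floor. Named genes: POM121, POM121C, E2F1, MYC and GATA2; the 10 largest opposite responders each way; the 8 highest and 8 lowest effects of 1-line responders; and up to 4 members per list by smallest p. Outside the opening 5, 1-line and opposite genes were not all-or-none (a sample at 0 beside another at log2 3 or more; 152 symbols, 18 of them among the calls) and had all 4 silenced libraries on one side. Other list members were named after their values were seen. Alternatives were other pseudocounts, filters, normalization, lane sets, control levels and bounds, single constructs, subline weights, a replicate block and leaving out libraries. Promoters were also searched for AP-1 and interferon response motifs, which are not used. A few genes and 1 further list are not reported here. The members and the 28 gene lists were chosen with earlier results of these data known.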

Additional observations from a re-analysis of the deposited data

Results flagged for a closer look

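Effects that differed between the sublines by the interaction test numbered 3377 of 13622, and line differences that themselves differed between the constructs numbered 162. Groups of 2 libraries are too small to test for single libraries far from the rest.

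The opposite responders with the largest line differences above zero were ANGPTL4 (1.62), DUSP1 (1.37), GADD45B (1.28), BHLHE40 (1.22), ADM (1.18), PPP1R15A (1.16), DHRS3 (1.03), IFRD1 (1.00), EPB41L4A-AS1 (0.95) and TNFRSF12A (0.92). Those below zero were FAM111B (-1.20), LINC00263 (-1.17), CNFN (-1.17), OAS3 (-1.16), LRRC45 (-1.03), SLC1A3 (-0.998), TLE2 (-0.995), TNS3 (-0.99), SREBF1 (-0.99) and ASF1B (-0.98).

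The line difference with construct 2 minus that with construct 1 passed the threshold for 6 named genes. It was 0.55 for OAS3, 1.09 for ESYT1, 0.44 for MCM4, 0.33 for CHAF1A, 0.37 for TOP2A and -0.95 for TAGLN, the actin-binding protein transgelin.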

How the results depend on the processing

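None of the 147 named genes with a called line difference changed sign in an alternative; of the uncalled ones 2 did, MYC (-0.28 to 0.07) and PCSK1N (-0.40 to 0.04). Of the alternative values for single genes 3738 stayed on the same side of the threshold, 284 lost the call and 53 gained it. Leaving out 1 library at a time gave 1689 (without 2A) to 6180 (without 5C) called line differences, 594 to 2074 above zero and 1095 to 4218 below, 2548 to 7016 effects in 22Rv1DR and 1551 to 5136 in DU145DR. It gave 72 to 774 opposite responders, 114 to 228 of 22Rv1DR only, 32 (without 4A) to 77 of DU145DR only, and 46 to 656 in the same direction. Without 2A 68 of the 215 opposite responders were shared, and without 5C 214. The lower-numbered or higher-numbered lanes alone gave 135 or 134 opposite responders and 82 or 69 in the same direction. A control level above log2 FPKM 2 left 45 of DU145DR only, and a bound of 0.2 on the other line left 76 of 22Rv1DR only and 14 of DU145DR only, by construction. Alternatives chosen after seeing the data were weights by subline (5011 effects in DU145DR), 1 construct with controls, and leaving out 4C and 5C. Construct 1 gave 4669 line differences, 423 opposite responders, 257 of 22Rv1DR only and 379 in the same direction. Construct 2 gave 1233 line differences (493 above zero, 740 below), 1270 effects in DU145DR, 39 opposite responders, 34 of DU145DR only and 13 in the same direction. Without 4C and 5C there were 1893 differences above zero, 5133 effects in DU145DR, 497 opposite responders, 256 of 22Rv1DR only and 499 in the same direction. Of the 215 opposite responders, 170 were shared with construct 1, 34 with construct 2 and 179 without 4C and 5C. These alternatives change the number of libraries and the shared spread, and the cause of each shift was not tested. The replicate block gave 3181 line differences and 222 opposite responders, but same-numbered libraries correlated by only -0.102 to 0.126, so the numbers are not taken to pair the samples. Unknown depth means that no counting interval can be given for low genes.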

Other observations

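Among the 158 genes that moved in the same direction by different amounts, 69 rose and 89 fell. DEPTOR, an inhibitor of mTOR kinase, was at 5.81, 6.47, 6.49 and 5.84 FPKM in the 22Rv1DR siPOM121 libraries, against 5.16 and 4.48 FPKM in the 22Rv1DR controls. In DU145DR it was at 18.6, 18.1, 14.7 and 15.9 FPKM in the siPOM121 libraries, against 8.87 and 7.94 FPKM in the controls. DEPTOR rose in both lines and more so in DU145DR, with a line difference of -0.64 ± 0.12 (limma, adjusted p = 0.00495), which did not pass with construct 2 libraries and controls only. AKR1C3, which makes active androgens from precursors, rose by 0.21 ± 0.05 in 22Rv1DR and 0.75 ± 0.05 in DU145DR, and the receptor NOTCH3 by 0.18 ± 0.05 and 0.61 ± 0.05.

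Larger rises in 22Rv1DR were those of LATS2, a kinase of the Hippo pathway, with 0.74 ± 0.06 in 22Rv1DR and 0.25 ± 0.06 in DU145DR, and of the integrin ITGA5, with 0.70 ± 0.05 and 0.27 ± 0.05 in the same order. ODC1, the first enzyme of polyamine synthesis, fell by 0.26 ± 0.06 in 22Rv1DR and fell by 0.68 ± 0.06 in DU145DR, a difference that did not pass with construct 2 libraries and controls only. CAD, the enzyme that begins pyrimidine synthesis, fell by 0.60 ± 0.07 in 22Rv1DR and fell by 0.24 ± 0.07 in DU145DR. The line difference of CAD did not pass in 9 of 25 alternatives, 8 of which left out 1 library (1A, 2A, 1B, 2B, 2C, 4A, 5A or 4B), with adjusted p up to 0.12. HIST1H1C, a linker histone, differed by 0.87 ± 0.14 (adjusted p = 0.00341), from 1.02 ± 0.10 in 22Rv1DR and 0.15 ± 0.10 in DU145DR. The DU145DR effect did not pass, so HIST1H1C is not among the genes counted as moving in the same direction.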
